A study of Mus musculus with 14 samples.

Results

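The 10 genes described here encode paired isoenzymes of 5 glycolytic steps: hexokinase (Hk1 and Hk2), phosphofructokinase (Pfkp and Pfkm), aldolase (Aldoc and Aldoa), phosphoglycerate mutase (Pgam1 and Pgam2) and enolase (Eno2 and Eno3). They were taken by name, as the probes that carry one of these gene symbols in the annotation of the array, which gave 14 of 25697 probes and 10 of 16593 genes. Pfkm and Pfkp had 3 probes each and the others 1.

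Glycolysis splits glucose into pyruvate through a fixed chain of reactions, and several of these reactions are run by more than one gene. Skeletal muscle, above all its fast fibres, carries isoforms suited to bursts of contraction, whereas brain runs on a steady supply of glucose and uses isoforms of neurons and astrocytes. Which member of a pair a tissue expresses is a classical mark of its cell types.

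RNA was taken from brain and skeletal muscle of male C57BL/6J mice that had entered the diets at 13 months of age, and was hybridised to 14 arrays (Sentrix Mouse-8 v2 from Illumina), on which each transcript is reported as the brightness of beads carrying its probe. The βL mice received a normal diet with 0.066% β-lapachone, a quinone used to raise the ratio of NAD+ to NADH, the CR mice 70% of the normal diet, and the control mice the normal diet ad libitum. Brain gave 2 arrays on βL, 2 on CR and 2 on control, and muscle gave 3, 3 and 2. Which muscle was dissected and how long the mice had been on the diets before these arrays is not given in the sources used here. Whether the replicates of a group were separate mice is not stated, and each p-value therefore reflects array-to-array spread that could be technical.

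The tissue labels matched their markers. Of 9 skeletal muscle markers, 9 were above background on each muscle array and 1 to 3 on each brain array (above background means a detection p under 0.05), and of 9 neuron markers 7 were above background on each brain array and 2 on each muscle array, with the Snap25 and Nefl probes above background on no array. Probes above background made up 53.9% to 55.4% of those on a brain array and 43.3% to 45.9% on a muscle array, with median intensities of 79.9 to 127 in brain and 149.8 to 164.6 in muscle. The brain median of 127 was that of control replicate 1, against 79.9 to 92.0 on the other brain arrays. Brain readings before normalization given below are not adjusted for this. Among the muscle arrays 1 stood apart: control replicate 1 correlated with the others at a mean r of 0.971 across genes, against 0.977 to 0.984 for the rest. On it, 7 of 9 slow-fibre markers were above background with a summed intensity of 4000, against 9 of 9 and sums of 35812 to 221718 on the other muscle arrays, and 5 of 6 liver markers were above background, against 0 on the others. Muscle diet values of several isoenzymes are also given without it.

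Between brain and muscle the members of all 5 pairs moved in opposite directions. Hk1, Pfkp, Aldoc, Pgam1 and Eno2 were higher in brain, and Hk2, Pfkm, Aldoa, Pgam2 and Eno3 were lower in brain, each with an adjusted p between 1.51e-16 and 5.93e-10 (limma across 10765 genes and 14 arrays, Benjamini-Hochberg). With this many arrays from distinct organs most genes pass such a test, and 83.2% of all genes tested were called, 38.4% higher and 44.8% lower in brain. The median absolute log2 fold change of the 10 isoenzymes was 5.48, against 0.87 over all genes tested. The genes were picked as isoforms known for brain or for muscle, so nothing is read from that gap, and the sizes of Hk1 and Aldoc rest on muscle readings at background. For each isoenzyme the brain arrays and the muscle arrays did not overlap, which held for 66.2% of all genes tested. In such bulk samples fewer cells of a type and less RNA per cell cannot be told apart.

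**Figure D1:**
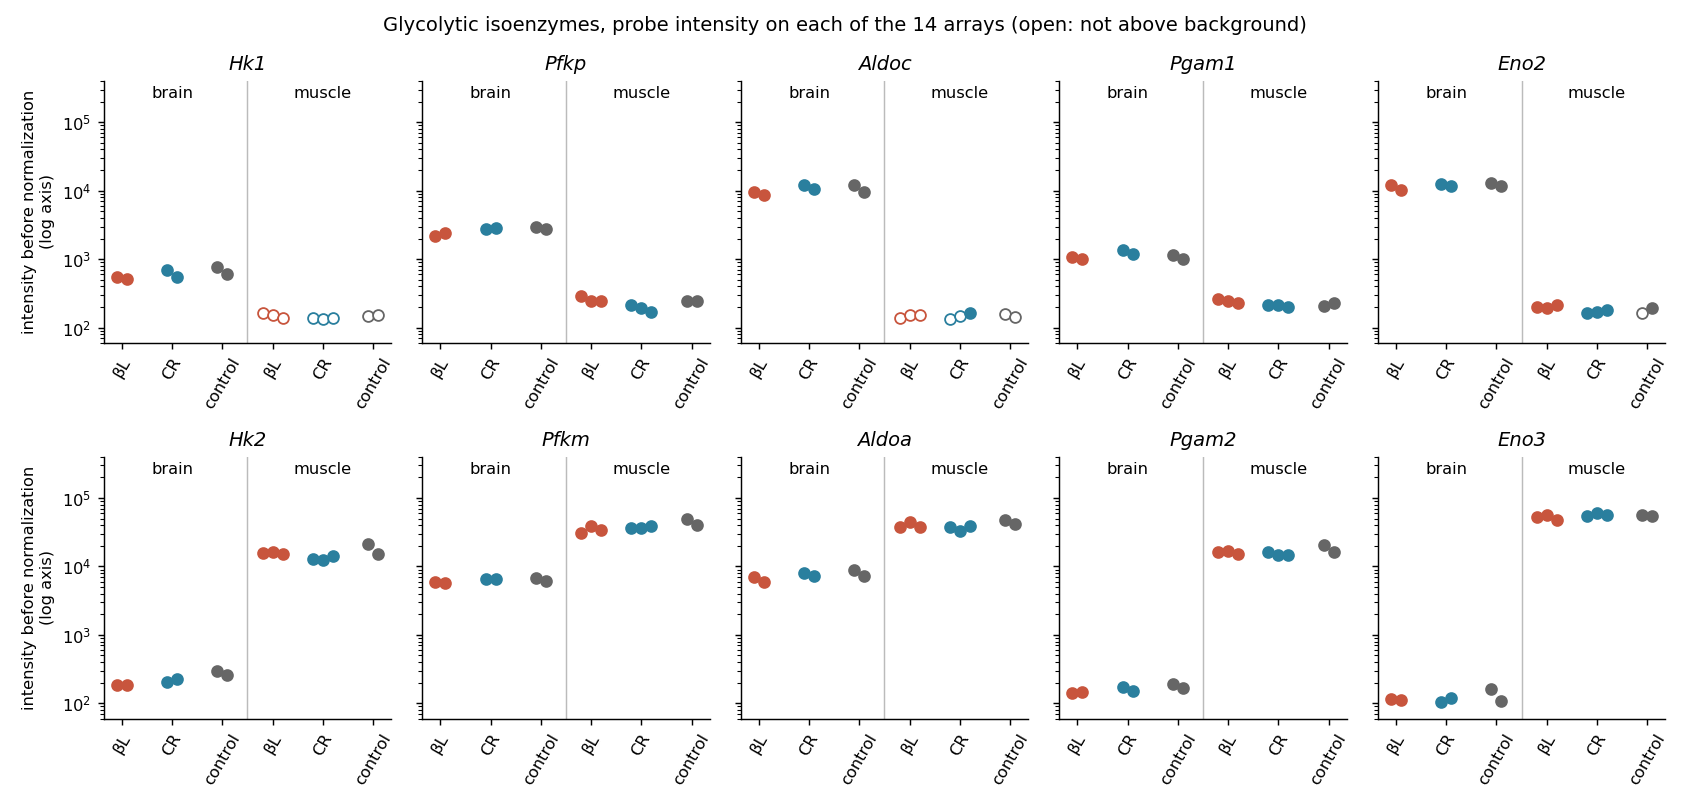
Intensity before normalization (log axis) of the probe used for each isoenzyme on the 14 arrays, by tissue and diet; open circles are not above background. The upper row holds the 5 isoenzymes that were higher in brain and the lower row their partners, such as Eno3 at 103 to 161 in brain and 48000 to 60439 in muscle.

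Enolase, which makes phosphoenolpyruvate, had the pair with the widest separation. Eno2 encodes gamma-enolase, known as neuron-specific enolase, and lies at chr6:124760053-124769673 (coordinates here and below are RefSeq's on GRCm38.p6). Its intensity before normalization was 12000 and 10184 on the βL brain arrays, 12399 and 11882 on the CR brain arrays and 12842 and 11750 on the control brain arrays, against 162 to 217 with a median of 185 on the muscle arrays, where 7 of 8 were above background. The brain values sat within a narrow band and none came near the muscle values. Eno2 was 7.999 ± 0.163 higher in brain on the log2 scale (SE, adjusted p = 2.26e-13), which placed it at rank 23 of the 10765 genes from the brain end. Eno3, at chr11:70653125-70662513, encodes the beta-enolase of striated muscle. It read 118 and 111 on βL, 103 and 120 on CR and 161 and 110 on control brain arrays, against 48000 to 60439 with a median of 55547 in muscle. It was above background on 6 of 6 brain arrays, whereas in muscle it ranked within the 16 brightest probes on every array and first on CR replicates 2 and 3. Eno3 differed by -9.52 ± 0.08 (log2, brain over muscle, SE, adjusted p = 1.51e-16), rank 13 from the muscle end. Whether readings at the top of the scale were saturated was not tested.

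Enolase and mutase are the pairs in which both members have 1 transcription start each in the RefSeq promoter table, and the 250 bases before it are printed for these 4 genes to set the windows of both members of a step beside each other. For Eno3 the listed start and the window lie inside the annotated bounds of the gene, downstream of where it begins, and other starts were not used here. Capitals mark matches, on either strand, to an E-box (CANNTG), a TATA box (TATAAA), a GC box (GGGCGG) or the MEF2 site, which are letter motifs of the myogenic bHLH factors, the basal machinery, Sp1-type factors and MEF2 factors.
Eno2, chr6:124769674-124769923, minus strand: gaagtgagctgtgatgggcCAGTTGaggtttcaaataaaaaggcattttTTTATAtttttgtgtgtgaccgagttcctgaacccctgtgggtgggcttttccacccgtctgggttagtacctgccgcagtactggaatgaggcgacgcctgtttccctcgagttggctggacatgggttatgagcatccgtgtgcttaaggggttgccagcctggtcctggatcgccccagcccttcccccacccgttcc
Eno3, chr11:70656926-70657175, plus strand: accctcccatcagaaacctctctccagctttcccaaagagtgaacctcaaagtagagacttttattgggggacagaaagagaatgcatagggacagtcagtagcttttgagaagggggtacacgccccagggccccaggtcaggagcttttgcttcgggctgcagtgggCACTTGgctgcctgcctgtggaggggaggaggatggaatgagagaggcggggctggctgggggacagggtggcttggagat
Pgam1, chr19:41911621-41911870, plus strand: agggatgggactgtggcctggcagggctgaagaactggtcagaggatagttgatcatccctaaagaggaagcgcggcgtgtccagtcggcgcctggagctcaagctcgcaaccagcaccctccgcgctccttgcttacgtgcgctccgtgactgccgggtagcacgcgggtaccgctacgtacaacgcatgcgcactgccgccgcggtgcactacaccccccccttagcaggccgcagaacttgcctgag
Pgam2, chr11:5803797-5804046, minus strand: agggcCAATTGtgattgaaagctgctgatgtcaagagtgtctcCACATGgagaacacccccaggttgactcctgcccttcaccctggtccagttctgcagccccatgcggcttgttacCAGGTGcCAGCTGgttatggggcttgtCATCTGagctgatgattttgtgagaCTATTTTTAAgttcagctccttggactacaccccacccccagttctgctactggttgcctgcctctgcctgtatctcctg
Pgam2 held 5 E-box matches and 1 MEF2 match, which began 80 bases before the start and did not overlap them. Eno3 held 1 E-box match, Eno2 held 1 E-box match and 1 TATA match on the reverse strand, and Pgam1 held none of the 4. Over all 32841 windows of this length, an E-box was found in 66.2%, a GC box in 32.7%, a TATA box in 12.4% and a MEF2 match in 2.92%. CpG pairs numbered 9 in Eno2, 3 in Eno3, 22 in Pgam1 and 1 in Pgam2, against a median of 6 over all windows. A match is a description of these letters, not a site in use.

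Phosphoglycerate mutase moves the phosphate between carbon atoms ahead of enolase. Pgam1, the brain-type subunit that most tissues make, lies at chr19:41911871-41918665, and read 1078 and 1018 on βL, 1341 and 1206 on CR and 1166 and 1011 on control brain arrays. On muscle arrays it read 201 to 260 with a median of 222 and was above background on 8 of 8. The difference was 3.09 ± 0.09 in favour of brain (log2, SE, adjusted p = 8.72e-12), or 8.52-fold. Pgam2, the muscle subunit, lies at chr11:5801637-5803796. Its readings were 143 and 147 on βL, 173 and 153 on CR and 192 and 167 on control brain arrays, against 14611 to 20648 with a median of 16356 in muscle, a difference of -7.23 ± 0.08 (log2, brain over muscle, SE, adjusted p = 1.27e-15). The highest of the muscle readings was that of control replicate 1, and without that array the difference was -7.13.

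Aldolase cleaves fructose bisphosphate. Aldoc, the aldolase of brain that astrocytes and Purkinje cells are known for, lies at chr11:78323073-78327781. It read 9599 and 8574 on βL, 12015 and 10479 on CR and 12228 and 9570 on control brain arrays, and 132 to 163 with a median of 151 in muscle, where only CR replicate 3 was above background. Aldoc was 8.70 ± 0.17 higher in brain (log2, SE, adjusted p = 1.56e-13) or 416-fold, a size that rests on a muscle level at the floor of the array, and it was 120-fold higher without background correction. Aldoa, the aldolase of muscle and of most other tissues, lies at chr7:126795234-126800994 and was bright in both organs. It read 7101 and 6003 on βL, 7897 and 7150 on CR and 8895 and 7219 on control brain arrays, against 33102 to 48142 with a median of 37925 in muscle. The difference of -1.75 ± 0.08 (log2, brain over muscle, SE, adjusted p = 5.93e-10) was the smallest in size among the 10 isoenzymes.

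Phosphofructokinase commits sugar to glycolysis, as a tetramer of subunits from the Pfkm, Pfkl and Pfkp genes. Pfkp, the platelet-type subunit that is also abundant in brain, lies at chr13:6579874-6649060. The probe used read 2179 and 2436 on βL, 2739 and 2837 on CR and 2926 and 2784 on control brain arrays, against 170 to 290 with a median of 243 in muscle, above background on 8 of 8. Pfkp was 4.45 ± 0.13 higher in brain (log2, SE, adjusted p = 8.17e-12). Its other probes differed by 3.79 and 1.39 in the same direction, and were above background on 3 of 8 and 0 of 8 muscle arrays. Before correction and normalization the medians of the dimmest probe were 130 in brain and 132 in muscle, so its difference of 1.39 rests on the processing. With the mean of all Pfkp probes the difference was 3.21. Pfkm, the muscle subunit, which brain and red cells also make, lies at chr15:98092589-98132447. Its brightest probe read 5996 and 5655 on βL, 6443 and 6463 on CR and 6863 and 6183 on control brain arrays, against 30328 to 49906 with a median of 37957 in muscle. Pfkm differed by -2.00 ± 0.09 (log2, brain over muscle, SE, adjusted p = 5.19e-10), and its other probes differed by -1.65 and -2.97.

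Hexokinase traps glucose as glucose 6-phosphate. Hk1, the hexokinase on which brain and red cells rely, lies at chr10:62268855-62379920. It read 554 and 509 on βL, 697 and 547 on CR and 769 and 605 on control brain arrays, whereas on muscle arrays it read 136 to 166 with a median of 144 and was above background on 0 of 8. A bound is therefore the proper measure, with the mean of the brain arrays set against the lowest signal above background on each muscle array or the probe's own if that was higher, and Hk1 was at least 9.63-fold higher in brain on the background-corrected scale (adjusted p of the fit 6.14e-12). The bound holds for that scale alone, and without background correction the means of the organs differed 5.15-fold. Hk2, the insulin-responsive hexokinase of muscle, heart and fat, lies at chr6:82725025-82774454. It read 185 and 184 on βL, 204 and 225 on CR and 297 and 256 on control brain arrays, and 12523 to 21107 with a median of 15132 in muscle. Hk2 differed by -6.51 ± 0.08 (log2, brain over muscle, SE, adjusted p = 3.99e-15).

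**Figure D2:**
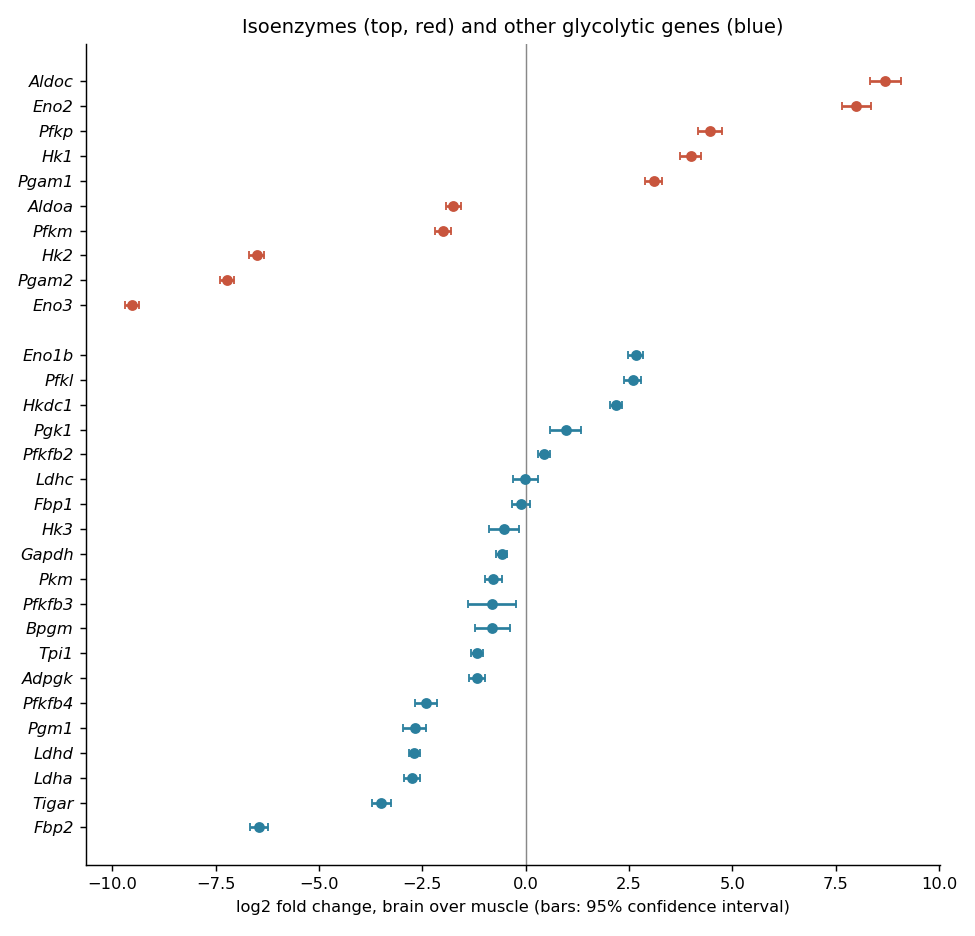
Log2 fold change of brain over muscle with its 95% confidence interval for the 10 isoenzymes (red) and for 20 other glycolytic and linked genes (blue), from limma over the 14 arrays. The isoenzymes run between -9.52 for Eno3 and 8.70 for Aldoc, and of the others Fbp2, at -6.45 in the fit, lies farthest from 0.

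The change of each pair can be read without comparing the brightness of probes, as the log2 difference of its members on each array and the shift of that difference between the organs. The difference of Eno2 minus Eno3 was 17.48 higher in brain than in muscle, that of Hk1 minus Hk2 10.47, that of Aldoc minus Aldoa 10.42, that of Pgam1 minus Pgam2 10.29 and that of Pfkp minus Pfkm 6.44. Without background correction, an alternative chosen after seeing the data, the shifts were 14.96, 8.14, 8.62, 8.62 and 5.68 for the same pairs, so the order of the hexokinase, aldolase and mutase pairs depends on the processing. The spread between arrays was small beside the shifts, with SDs of 0.10 to 0.26 over the 6 brain arrays and 0.31 to 0.57 over the 8 muscle arrays. In the limma fit over all arrays, the contrasts of brain over muscle within βL, CR and control gave each of the 10 isoenzymes the same direction. Every adjusted p was at or under 5.00e-07 (72.6%, 72.4% and 70.1% of all genes were called in these contrasts). No diet was fitted on its own. The contrasts share the spread pooled over all diets, so their p-values are not separate tests.

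**Figure D3:**
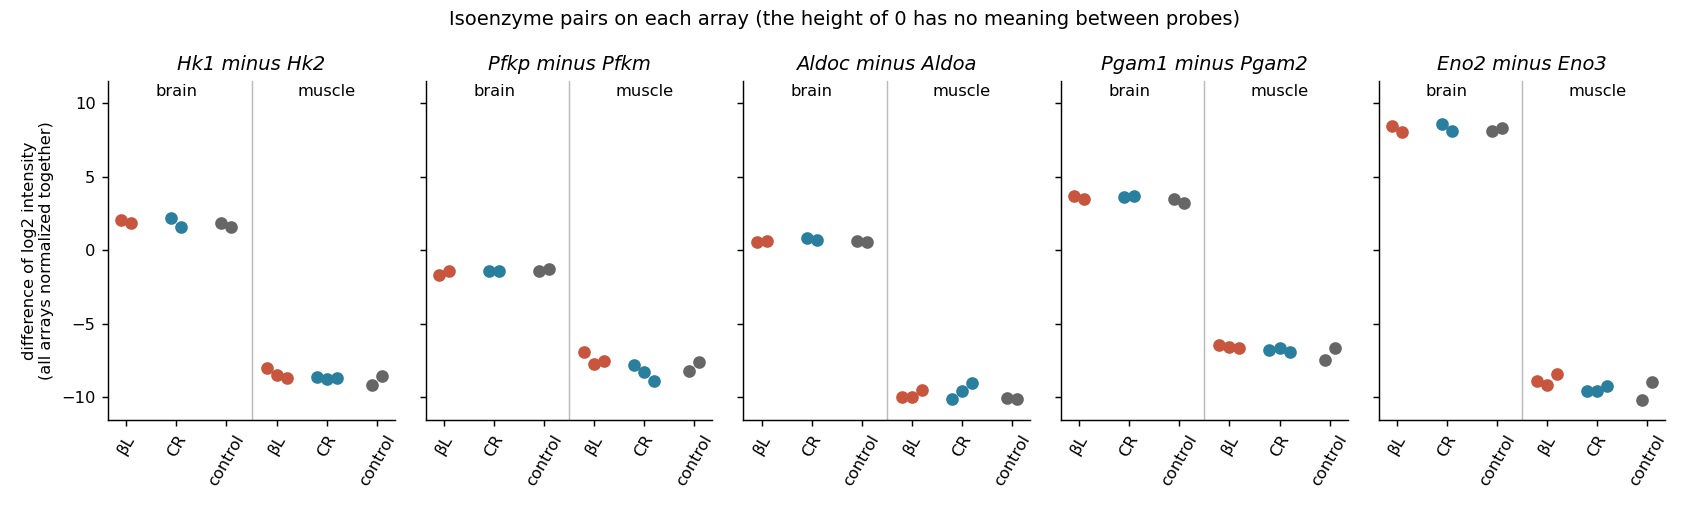
Difference of log2 intensity within each isoenzyme pair on each array, by tissue and diet, with all 14 arrays normalized together. In each pair the 6 brain arrays lie above the 8 muscle arrays, by 6.44 (Pfkp minus Pfkm) to 17.48 (Eno2 minus Eno3) in the mean.

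Of 30 other genes of glycolysis and linked reactions, 24 were on the array and 20 could be tested between the organs. Of these 20, 5 were higher and 13 lower in brain and 2 (Fbp1 and Ldhc) did not pass, with a median of -0.80 against -0.10 over all genes tested, of which 83.2% were called. On the brain side Pfkl, the liver-type phosphofructokinase subunit, was 2.59 ± 0.09 higher (log2, SE, adjusted p = 4.04e-11), and Pfkfb2, which makes the fructose bisphosphate that stimulates phosphofructokinase, was 0.44 ± 0.06 higher (adjusted p = 3.12e-05). Eno1b, a near-identical copy of Eno1 whose probe may read either, and Hkdc1, a hexokinase-like gene, were above background on no muscle array, and were at least 3.01-fold and 2.20-fold higher in brain (adjusted p of the fit 2.22e-11 and 6.70e-12). On the muscle side Ldha, the muscle-type lactate dehydrogenase subunit, differed by -2.74 ± 0.09 and Ldhd, a D-lactate dehydrogenase, by -2.70 ± 0.06 (log2, brain over muscle, SE, adjusted p = 1.99e-11 and 4.97e-13). Fbp2, the muscle fructose bisphosphatase, and Tigar, which removes phosphate from fructose bisphosphates, were above background on no brain array, and were at least 73.9-fold and 9.56-fold higher in muscle (adjusted p of the fit 1.80e-14 and 8.49e-12). The bounds for Eno1b, Hkdc1, Fbp2 and Tigar hold for the background-corrected scale alone. Before correction the medians in brain and muscle were 237 and 130 for Eno1b and 195 and 134 for Hkdc1. They were 67.9 and 2962 for Fbp2 and 72.4 and 436 for Tigar. Pfkl read 2361 to 2999 in brain and 444 to 759 in muscle. Ldha read 3424 to 4222 in brain and 31090 to 43593 in muscle.

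Ordered by level over the 6 groups, each isoenzyme had its 3 groups of one organ above the 3 of the other. Within an organ, neighbouring groups overlapped for most: 4 of the 5 steps between neighbours overlapped for Hk1, Aldoa, Aldoc, Pgam2 and Eno2, 3 for Hk2, Pfkm and Eno3, and 2 for Pfkp and Pgam1. The step that never overlapped was the one between the organs. These counts describe the arrays only, since the share of all genes whose groups did not overlap was 15.8% to 40.7% between diets of an organ and 66.2% between organs.

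The size of the organ difference moved with the processing while its direction did not. Without background correction it was 2.37 for Hk1, 6.91 for Aldoc, 6.79 for Eno2 and 2.41 for Pgam1 (log2, brain over muscle), and -8.18 for Eno3. With median scaling in place of quantile normalization it was -2.74 for Aldoa and -2.92 for Pfkm. Without any scaling 57.0% of the called genes were higher and 43.0% lower in brain, against 46.2% and 53.8% with it, and the median of all genes was 0.18 in place of -0.10, with the direction of all 10 isoenzymes kept.

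The gene whose centred log2 profile over the 14 arrays lay nearest to each isoenzyme was Tmod2 for Hk1 (root mean square difference 0.14), Rims2 for Pfkp (0.27), Bex2 for Aldoc (0.32), Samd14 for Pgam1 (0.13) and Scg5 for Eno2 (0.27). For the muscle members it was Trim54 for Hk2 (0.17), Stradb for Pfkm (0.088), Mrpl54 for Aldoa (0.095), Ldb3 for Pgam2 (0.13) and Rpl3l for Eno3 (0.16). These profiles are made almost entirely of the difference between the organs, and the next genes lay close behind those named.

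Within brain no isoenzyme passed the limma test for a diet difference. Of the 10, 0 were called for βL over control, 0 for CR over control and 0 for βL over CR, beside 0.331%, 0.231% and 0.281% of the 9956 genes tested, and 1, 2 and 0 had an unadjusted p under 0.05, beside 8.73%, 8.15% and 9.36% of the genes tested. The methods' t-test called 0 in each after adjustment, with 3, 0 and 0 at an unadjusted p under 0.05. The estimates ran between -0.47 and 0.14, between -0.35 and 0.23 and between -0.14 and 0.25, each with a 95% interval reaching 0.19 to 0.36 to either side on the log2 scale. By the probe used for each gene, Pfkm and Eno2 were the steadiest of the brain measurements, with ranges of 0.07 and 0.16 over the 6 arrays. Another Pfkm probe ran between 9.11 and 9.55 (log2 normalized intensity).

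Hk2 in brain was the isoenzyme with the smallest p. Its log2 normalized intensity was 7.16 and 7.33 on βL, 7.28 and 7.47 on CR and 7.68 and 7.76 on control arrays. All arrays of either diet were below those of control, and βL and CR overlapped. The log2 fold change was -0.47 (95% interval -0.73 to -0.22, adjusted p = 0.288) for βL over control and -0.35 (-0.60 to -0.09, adjusted p = 0.496) for CR over control, and the 2 comparisons share their control arrays. Groups that did not overlap in this direction were found for 20.9% and 18.6% of all genes tested in these comparisons. Of 5 macrophage and microglia markers, 5 were above background on each brain array and their mean log2 level was 8.20 to 8.30 on βL, 8.37 to 8.40 on CR and 8.86 to 8.95 on control arrays, and their part in the Hk2 values was not tested. Choroid plexus markers also differed, with summed intensities of 23891 to 25665 on βL, 4088 to 4199 on CR and 11909 to 14752 on control brain arrays (5, 3 and 4 of 5 above background), and their part was not tested either. Red cell markers had sums of 10398 to 10547 on βL, 4732 to 5059 on CR and 6006 to 6700 on control brain arrays. Their part was likewise not tested.

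Pgam1 in brain read 10.10 and 10.11 on βL, 10.27 and 10.11 on CR and 9.98 and 9.94 on control arrays on the same scale. It lay above control on every βL and CR array, by 0.14 (95% interval -0.08 to 0.36, adjusted p = 0.721) and 0.23 (0.01 to 0.45, adjusted p = 0.587), and 19.8% and 19.1% of all genes tested lay above control without overlap. Including these, the groups did not overlap for Pfkm and Pgam1 (higher) and Hk1 and Hk2 (lower) under βL against control, for Pgam1 (higher) and Hk2 and Pfkp (lower) under CR against control, and for Pfkm (higher) and Pgam1 (lower, by a gap within the rounding shown) under βL against CR. That made 4, 3 and 2 of 10, against 40.7%, 37.8% and 40.2% of all genes tested.

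**Figure D4:**
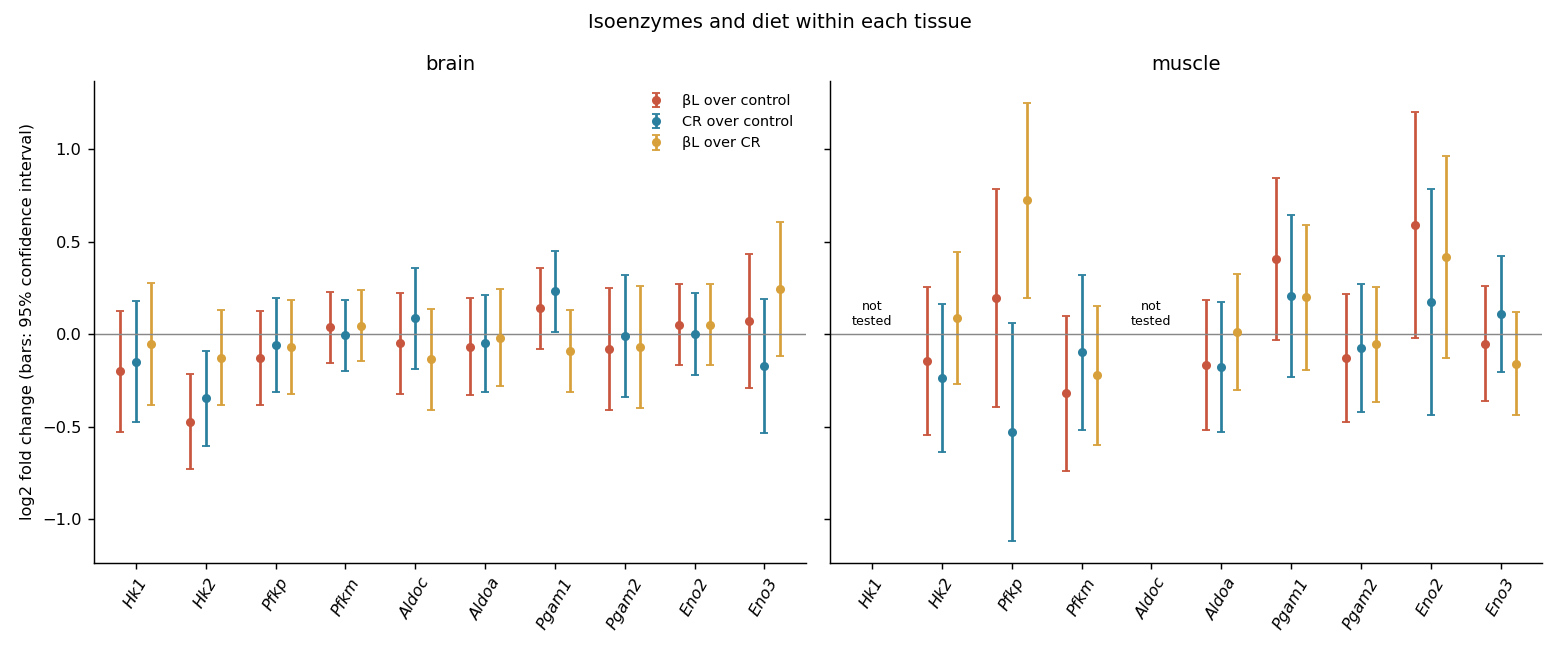
Log2 fold changes of the isoenzymes between diets, with 95% confidence intervals, in brain (left) and muscle (right), from limma within each tissue. None passed an adjusted p of 0.05; Hk2 in brain at -0.47 for βL over control and Pfkp in muscle at 0.72 for βL over CR lie farthest from 0 relative to their intervals.

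Within muscle 8 of the 10 isoenzymes could be tested, since Hk1 and Aldoc were above background on fewer than 2 muscle arrays. Of these 8, 0 were called for βL over control, 0 for CR over control and 0 for βL over CR, beside 0.0225%, 0% and 0.0225% of the 8898 genes tested, and 0, 0 and 1 had an unadjusted p under 0.05, beside 10.4%, 5.12% and 9.62% of the genes tested. The methods' t-test called 0 in each as well, and 0 had an unadjusted p under 0.05. The estimates ran between -0.32 and 0.59, between -0.53 and 0.21 and between -0.22 and 0.72, with 95% intervals of 0.28 to 0.61 to either side, wider than in brain. Over the 8 arrays the muscle-side isoforms spanned 0.30 (Eno3) to 0.70 (Pfkm) on the log2 scale, whereas the brain-side isoforms tested spanned 0.84 (Pgam1) to 1.53 (Pfkp).

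Pfkp in muscle read 7.34, 6.88 and 6.78 on βL, 6.66, 6.36 and 5.80 on CR and 6.76 and 6.85 on control arrays (log2 normalized intensity). Every CR array lay below every βL array and every control array, and βL and control overlapped. The log2 fold change was 0.72 for βL over CR (95% interval 0.20 to 1.25, adjusted p = 0.411), -0.53 for CR over control (-1.12 to 0.06, adjusted p = 0.938) and 0.20 for βL over control (-0.39 to 0.79, adjusted p = 0.839). When the 3 Pfkp probes were averaged these values were 0.29, -0.21 and 0.08. Without CR replicate 3 the value was 0.49 for βL over CR and -0.29 for CR over control, and without βL replicate 1 it was 0.03 for βL over control. Red cell markers had summed intensities of 45541 to 62137 on βL, 17598 to 25996 on CR and 17754 to 24908 on control arrays (3 or 4, 2 and 2 of 4 above background), and macrophage markers of 3097 to 6969 on βL, 1524 to 2456 on CR and 1925 to 3111 on control arrays (4 or 5 of 5), and their part in the Pfkp values was not tested. Slow-fibre markers also differed, with summed intensities of 101247 to 221718 on βL, 35812 to 160035 on CR and 4000 to 173743 on control muscle arrays. Adipocyte markers had sums of 5904 to 12698 on βL, 3857 to 7166 on CR and 2035 to 6400 on control muscle arrays. The part of the slow-fibre and adipocyte markers in the muscle diet values was not tested either.

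Eno2 and Pgam1, which muscle expresses faintly, were the members with the highest estimates for βL over control. Eno2 read 6.13, 5.99 and 6.46 on βL, 5.60, 5.70 and 6.03 on CR and 5.16 and 6.05 on control arrays, and its value for βL over control was 0.59 (95% interval -0.02 to 1.205, adjusted p = 0.494). Pgam1 read 7.03, 6.83 and 6.64 on βL, 6.61, 6.79 and 6.49 on CR and 6.19 and 6.66 on control arrays, with 0.41 for βL over control (-0.03 to 0.85, adjusted p = 0.514). For both genes the control arrays spread widely and control replicate 1 was the lowest of the muscle arrays, not above background for Eno2. Without it the values were 0.15 for Eno2 and 0.17 for Pgam1, and without control replicate 2 they were 1.04 and 0.65. For CR over control the values were 0.17 for Eno2 and 0.21 for Pgam1 with both controls. Without control replicate 1 they were -0.27 and -0.0252.

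**Figure D5:**
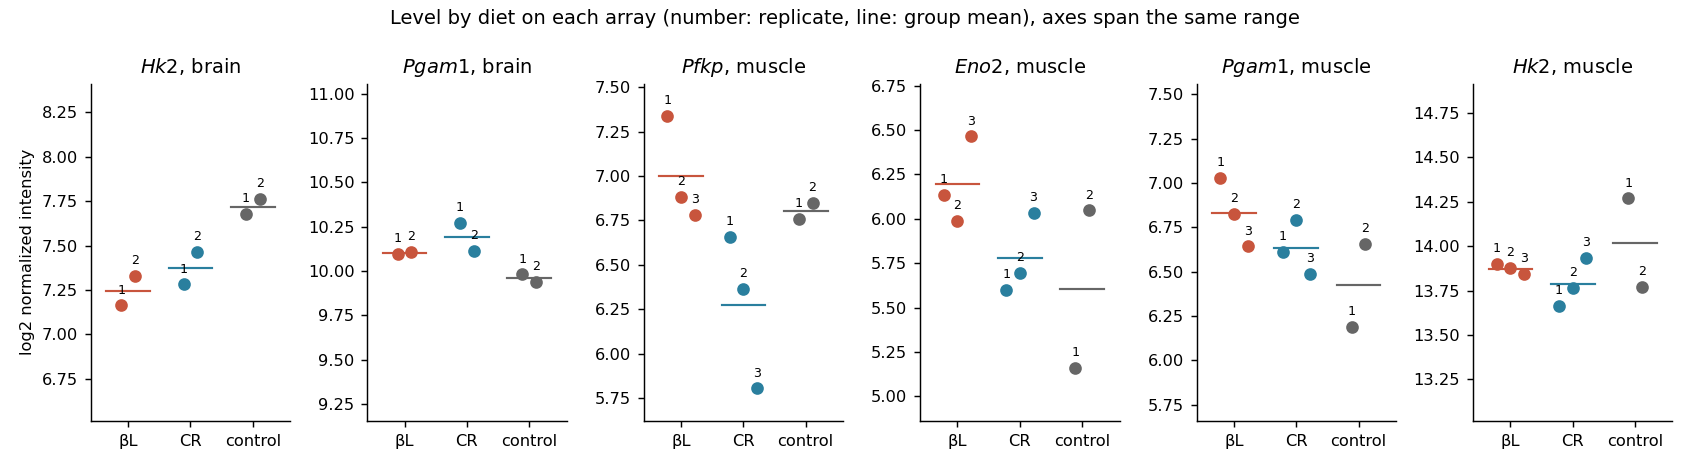
Log2 normalized intensity by diet on each array, with the replicate number and the group mean as a line, for Hk2 and Pgam1 in brain and for Pfkp, Eno2, Pgam1 and Hk2 in muscle; each axis spans the same range. Control replicate 1 is the highest muscle array for Hk2 and the lowest for Eno2 and Pgam1.

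Hk2, Pfkm, Aldoa and Pgam2 were highest in muscle on control replicate 1, whereas Eno3 was not. Hk2 read 13.90, 13.88 and 13.84 on βL, 13.66, 13.76 and 13.93 on CR and 14.27 and 13.77 on control arrays, so that control replicate 1 was the highest and control replicate 2 lay within the range of the others. The value for βL over control was -0.15 (95% interval -0.55 to 0.25, adjusted p = 0.817) with both controls, 0.10 without control replicate 1 and -0.40 without control replicate 2. For Pfkm the value for βL over control was -0.32 with both controls, -0.10 without control replicate 1 and -0.54 without control replicate 2. In the same order it was -0.17, -0.03 and -0.31 for Aldoa and -0.13, 0.06 and -0.31 for Pgam2. For CR over control with both controls, Hk2, Pfkm, Aldoa and Pgam2 were at -0.23, -0.10, -0.18 and -0.07. Without control replicate 1 these were 0.014, 0.12, -0.04 and 0.11. Eno3 differed by -0.05 for βL over control and 0.11 for CR over control, and its CR arrays lay above both control arrays. Groups did not overlap for 0 of 8 members under βL against control, for Eno3 (higher) and Pfkp (lower) under CR against control and for Pfkp (higher) under βL against CR, against 23.5%, 19% and 15.8% of all genes tested.

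Whether the organs answered a diet unequally was tested as the difference of the 2 responses. For βL over control, brain minus muscle, 0 of 10 isoenzymes were called beside 0.0372% of 10765 genes tested, 0 had an unadjusted p under 0.05, beside 7.78% of the genes tested, and the estimates ran between -0.62 for Eno2 and 0.40 for Pfkm (smallest adjusted p = 0.682). Without muscle control replicate 1 these were -0.06 for Eno2 and 0.15 for Pfkm, and without muscle control replicate 2 they were -1.20 and 0.65. For CR over control 0 of 10 were called beside 0.00929%, 0 had an unadjusted p under 0.05, beside 4.78% of the genes tested, and the estimates ran between -0.29 for Eno3 and 0.45 for Pfkp (smallest adjusted p = 0.995). The Pfkp value was 0.21 without muscle CR replicate 3. Hk1 and Aldoc enter these fits although they were near background in muscle. The intervals reached 0.42 to 0.93 to either side, so differences in response smaller than these sizes were not resolved with this number of arrays. Of the other glycolytic genes tested within a tissue (16 in brain and 15 in muscle), 0 were called in any diet comparison. For βL over control, CR over control and βL over CR, 1, 0 and 1 in brain had an unadjusted limma p under 0.05. In muscle 5, 2 and 2 had one. Over all genes tested the shares were 8.73%, 8.15% and 9.36% in brain and 10.4%, 5.12% and 9.62% in muscle. Of these other genes, those with the smallest p were Pgk1, a kinase of the ATP-yielding phase, in brain for βL over CR (-0.51, adjusted p = 0.205) and for βL over control (-0.46, adjusted p = 0.244), and Pfkl (0.65, adjusted p = 0.373) and Tigar (-0.71, adjusted p = 0.375) in muscle for βL over control. The Pgk1 probe was dim, at 108 to 194 in brain against array medians of 79.9 to 127, and was above background on 1 of 8 muscle arrays. The Pfkl and Tigar values were not refitted without muscle control replicate 1.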

How the data were processed

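Total RNA of brain and muscle was labelled and hybridised to Illumina Sentrix Mouse-8 v2 BeadChips by the authors, and images were read with BeadStudio 3.0. The deposited table gives, per probe and array, an intensity that was not normalized and a detection p-value, both set by the authors' scanner software. A second table deposited by the authors holds intensities on a linear scale after quantile normalization of all arrays, and was taken to log2 as an alternative.

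Intensities were corrected with normexp, using detection p-values, with an offset of 16, then quantile-normalized (within each tissue for diets, over all 14 arrays between tissues) and taken to log2. Probes with a detection p under 0.05 counted as above background, genes without such a probe on 2 or more of the fitted arrays were left out, and the brightest probe stood for a gene. Differences were fitted with limma 3.58.1 (R 4.3.3) across all genes kept, over the tissue-by-diet groups, and p-values were adjusted by Benjamini-Hochberg with calls under 0.05. Scripts were tested on simulated data with known changes. Of 100 genes given a log2 change of 1, 57 were recovered for βL over control in muscle. For βL over control in brain 79 of 100 were recovered, and between tissues 96 of 100. With a log2 change of 2 these counts were 93, 94 and 100. Changes near 1 within a tissue could therefore be missed. Changes smaller than 1 were not simulated, and the isoenzymes' diet estimates in the main fits were all smaller than that. The simulation also changed more genes than were called for any diet in the main fits, so its counts may be too high for these data. Named genes were the isoenzymes, up to 4 genes of the glycolysis list per direction between tissues and up to 2 per diet comparison with the smallest p, and the nearest profile of each isoenzyme. Members and lists were chosen with earlier results of these data known. Promoter windows came from RefSeq (GRCm38.p6). The alternatives were other background corrections, scalings, filters, probe summaries, weights, the methods' t-test, a replicate block and leaving out each array.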

Additional observations from a re-analysis of the deposited data

Results flagged for a closer look

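In 4 of 20 groups of arrays (10 isoenzymes in each organ) the highest array lay far from the rest, by a gap to its neighbour that was a larger share of the group's range than Dixon's critical value at 95% allows. For independent groups of like normal values chance alone gives about 1 in 20. The groups here share arrays and pool the diets, so no excess is read from the count. Hk2 in muscle was 14.27 on control replicate 1, against 13.93 on the next array (log2, ratio 0.555), and Pgam2 was 14.23 on the same array, against 14.01 on the next (0.579). Hk1 in muscle was highest on βL replicate 1 (0.539), where it was not above background. Eno2 in brain was 13.65 on βL replicate 1, against 13.54 on the next array (0.658).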

How the results depend on the processing

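The count of isoenzymes called stayed at 10 between the organs in all 27 alternatives and at 0 in every diet and response comparison. Of 1606 single values under the alternatives, 1534 kept their sign, and 72 changed it, all of them uncalled under both settings, with 0 called values lost. With the mean of the probes the log2 value was 0.01 for Pfkm in muscle CR over control, 0.1097 for Pfkm in brain CR over control, 0.1751 for Pfkp in brain CR over control and -0.0727 for Pfkm in brain βL over CR. With all arrays normalized together the log2 value was -0.0049 for Eno2 in brain CR over control. With median scaling the log2 value was -0.0672 for Eno2 in brain βL over control, -0.0754 for Pfkm in brain βL over control, 0.014 for Pfkm in brain CR over control, 0.0078 for Pgam2 in brain CR over control, -0.0761 for Eno2 in brain βL over CR and -0.0894 for Pfkm in brain βL over CR. With the deposited normalized values the log2 value was -0.0049 for Eno2 in brain CR over control and 1e-04 for Aldoc in the response to CR (brain minus muscle). Without background correction the log2 value was 2e-04 for Aldoc in the response to CR (brain minus muscle). With the replicate number as a block the log2 value was -0.0084 for Pgam2 in the response to βL (brain minus muscle), 0.1116 for Aldoc in the response to CR (brain minus muscle) and -0.0159 for Pgam1 in the response to CR (brain minus muscle). With 1 array left out in turn, these values changed sign. For the response to βL (brain minus muscle) the range was -0.0617 to 0.25 for Aldoa, -0.34 to 0.047 for Aldoc and -0.13 to 0.19 for Pgam2. For the response to CR (brain minus muscle) the range was -0.32 to 0.10 for Hk1, -0.39 to 0.0416 for Hk2, -0.13 to 0.36 for Pfkm, -0.0239 to 0.28 for Aldoa, -0.50 to 0.11 for Aldoc, -0.18 to 0.28 for Pgam1, -0.11 to 0.21 for Pgam2 and -0.83 to 0.30 for Eno2. For muscle βL over control the range was -0.40 to 0.10 for Hk2, -0.31 to 0.0566 for Pgam2 and -0.10 to 0.009 for Eno3. For muscle CR over control the range was -0.49 to 0.014 for Hk2, -0.32 to 0.12 for Pfkm, -0.0252 to 0.44 for Pgam1, -0.25 to 0.11 for Pgam2 and -0.27 to 0.62 for Eno2. For muscle βL over CR the range was -0.0698 to 0.062 for Aldoa. For brain βL over control the range was -0.16 to 0.0246 for Aldoa, -0.16 to 0.0571 for Aldoc, -0.20 to 0.0404 for Pgam2, -0.0275 to 0.13 for Eno2 and -0.021 to 0.17 for Eno3. For brain CR over control the range was -0.33 to 0.0378 for Hk1, -0.0301 to 0.0188 for Pfkm, -0.14 to 0.0444 for Aldoa, -0.0239 to 0.19 for Aldoc, -0.13 to 0.11 for Pgam2, -0.0252 to 0.0268 for Eno2 and -0.38 to 0.0371 for Eno3. For brain βL over CR the range was -0.24 to 0.13 for Hk1, -0.19 to 0.0532 for Pfkp, -0.0898 to 0.0567 for Aldoa, -0.19 to 0.049 for Pgam2 and -0.0281 to 0.13 for Eno2.

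Counts over all genes moved more: for βL over control in brain 33 genes were called, 0 by the methods' t-test and 69 with the deposited normalized values, for CR over control 23, 0 and 36, and for βL over CR 28, 2 and 44. Without muscle control replicate 2, 33 genes were called for βL over control in muscle, against 2 with it, 5 for CR over control, against 0, and 99 and 35 for the responses to βL and CR, against 4 and 1. For βL over CR in muscle the count ran between 0 (t-test) and 18 (without βL replicate 2), against 2.

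Without background correction, chosen after seeing the data, the shift of the pair difference between brain and muscle was 14.96 for enolase, 8.14 for hexokinase, 8.62 for aldolase, 8.62 for mutase and 5.68 for phosphofructokinase (log2), each smaller than with it.

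Same-numbered arrays did not deviate together (r between -0.215 and 0.192 within a tissue), so the numbers were not taken to pair them. With the replicate block, 8831 genes were called between the organs, 31, 15 and 23 in brain and 0, 0 and 2 in muscle (βL over control, CR over control, βL over CR), and no isoenzyme's call changed. For βL and CR in brain r was -0.114, and the crossed pairing, chosen after seeing the data, called 26 genes and 0 isoenzymes. A slide block was not run, because no slide was given in the files used. With 2 or 3 arrays a group, and with isoforms near background in the other organ, the number of arrays and the dim readings limit the precision.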
